A study of Saccharomyces cerevisiae with 12 samples.

Results

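The genes described here are 46 budding yeast genes for the synthesis of arginine, histidine, leucine, isoleucine and valine, lysine, tryptophan and its aromatic precursors, threonine, and glutamine and asparagine. They were chosen by systematic gene identifier from a fixed list, which left out sulfur amino acid genes, and all 46 were found among the 6159 genes of the deposited table. The rule went by gene function and used no measured value, but the list was drawn up with earlier results of these data known. They were measured by ribosome profiling, which sequences the mRNA fragments that ribosomes protect (footprints), and by sequencing of poly(A) mRNA from the same kind of culture. Every culture was Saccharomyces cerevisiae of the SK1 strain, in exponential mitotic growth in YEPD, a rich medium of yeast extract, peptone and dextrose, at 30 °C, harvested at an optical density of 0.6 after a 1 minute pretreatment with 100 µM cycloheximide. In 2xDbp1 cells, 4 copies of DBP1 stood under the regulatory regions of DED1. In Dbp1 cells DBP1 stood under those regions, and in Ded1 cells DED1 did. DED1 and DBP1 encode related DEAD-box RNA helicases of translation initiation, and the extra DBP1 copies were meant to match the helicase levels, so that the helicases' specificity could be compared. Each of the 3 genotypes had 2 mRNA and 2 footprint libraries. The labels do not say whether libraries of 1 genotype came from separate cultures, so the p-values measure only the spread between these samples.

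Amino acids are made from intermediates of central carbon metabolism by short chains of enzymes, and yeast runs these chains more strongly when amino acids are scarce. Most of the genes are targets of the transcription factor Gcn4, which binds near them and raises their transcription. Gcn4 itself is regulated mainly at translation, through upstream open reading frames in the leader of its mRNA, which makes its footprints as well as its mRNA relevant to these genes. Rich medium supplies amino acids, so the levels below are those of cells that were not starved by design.

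Depth, inferred from the spacing of the low values, was between 6.0 M and 8.5 M reads in mRNA and between 8.7 M and 13.1 M reads in footprints. The fewest reads of any of the 46 genes were 63 in an mRNA library, for LYS2 in 2xDbp1 replicate 1, and 118 in a footprint library, for LEU2 in Ded1 replicate 1. DED1 mRNA served as a check of the labels. Its levels were 1.81 to 1.87 RPKM for 2xDbp1, 2.74 to 2.81 for Dbp1 and 61.5 to 63.0 for Ded1, as the genotypes state. DED1 was low in 2xDbp1 and in Dbp1, so this check does not tell the labels of those genotypes apart. RPKM (reads per kilobase of gene, scaled to library depth) is a level per length, so it can be compared between genes. Markers of other states stayed low: 10 meiotic genes summed to 34.1 to 58.0 RPKM of mRNA per library and 8 mating genes to 12.4 to 21.1 RPKM. The highest meiotic gene, SPS4, was at 11.2 to 33.0 RPKM of mRNA, and SPO11, the meiotic DNA-break enzyme, was at 2.08 to 5.72 RPKM.

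Averaged over the 3 genotypes, most of the 46 genes lay above the median of all genes in mRNA, in footprints and in footprints per mRNA. Averaged over the 6 mRNA libraries, they ran from 3.5 RPKM for LYS2 to 1471 RPKM for HOM2, with a median of 197.7 RPKM. The 4785 genes with at least 5 RPKM in both library types had a median of 67.1 RPKM, and 43 of the 46 lay above it. Footprints ran from 8.93 RPKM for LYS2 to 2945 RPKM for ILV5, with a median of 420.7 RPKM against 42.1 RPKM over the 4785 genes. Of the 46 genes, 44 were above that median and 25 above the 90th percentile. Footprints per mRNA, the ratio of both levels and a measure of ribosome load per transcript, had a median of 1.20 for the 46 genes and 0.657 for the 4785. That ratio was above the median of all genes for 38 of the 46 and above the 90th percentile for 17.

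**Figure D1:**
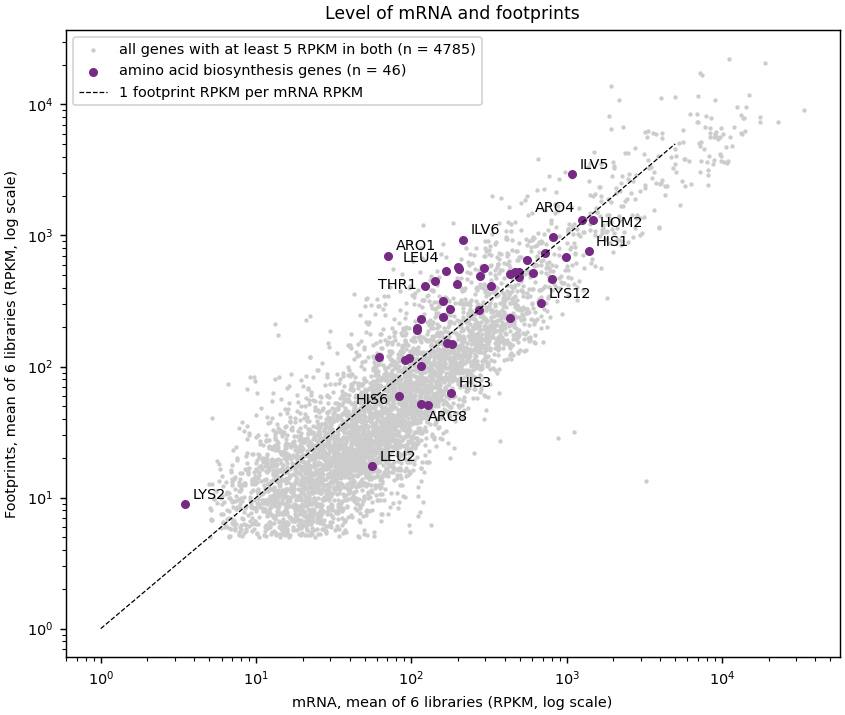
Mean footprint level against mean mRNA level (RPKM, both axes on a log scale) over the 6 libraries of each type, with the 46 amino acid synthesis genes in purple, labelled in part, and all genes with at least 5 RPKM in both types in grey. Most purple points lie in the upper part of the grey cloud, ARO1 stands far above the dashed line of equal values, and LEU2, HIS3 and ARG8 lie below it.

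ARO1 (YDR127W), which encodes a large enzyme that carries several activities of the path to chorismate, had the highest ratio of the 46 genes. It had 10.6 and 12.2 footprints per mRNA in 2xDbp1, 9.41 and 9.48 in Dbp1, and 7.68 and 10.2 in Ded1. ILV6, the regulatory subunit of acetolactate synthase, followed at a mean of 4.32, THR1, homoserine kinase, at 3.41, LEU4, the main isopropylmalate synthase, at 3.19 and TRP5, tryptophan synthase, at 3.17. At the other end stood LEU2, isopropylmalate dehydrogenase, at 0.312, HIS3, imidazoleglycerol-phosphate dehydratase, at 0.349 and ARG8, acetylornithine aminotransferase, at 0.392. These 3 genes were the ones below the 25th percentile of all genes. The genes are thus spread over a ratio range from 0.312 to 9.93 that the choice by function did not use.

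The ratio was larger for longer coding sequences. Across the 46 genes, Spearman's rho between footprints per mRNA and coding length, taken from the R64 reference gene table, was 0.53. Over the 4744 of the 4785 genes with a length it was 0.25, and both are descriptions across genes of the same libraries, with no test. The 8 genes of at least 2000 nt, ARO1, LYS2 and HIS4 among them, had a median ratio of 2.67, against 0.907 for all genes of that length. Those of 1000 to 2000 nt, 34 genes, had 1.10 against 0.638, and the 4 shorter ones 0.63 against 0.566. Length did not order every gene: ILV6, THR1 and ILV5, of 930, 1074 and 1188 nt, had ratios of 4.32, 3.41 and 2.71.

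No gene of the 46 passed the test in any genotype comparison. The test was limma on log2(RPKM + 1) with Benjamini-Hochberg adjustment over all genes, and fold changes below are on that scale. In mRNA 45 genes were tested, all but LYS2, whose mean was under the minimum of 5 RPKM, and in footprints all 46. Of all genes tested in mRNA, 0.077% passed in 2xDbp1 against Ded1, 1.52% in Dbp1 against Ded1 and 0.0192% in 2xDbp1 against Dbp1. In footprints the shares were 0.0621%, 3.31% and 0.0% in the same order of comparisons. At an unadjusted p under 0.05, 5 of the 45 genes, all lower in 2xDbp1, were found in 2xDbp1 against Ded1 mRNA, where 15.1% of all genes had such a p in either direction. Of the other 2 mRNA comparisons, Dbp1 against Ded1 had 4 such genes, 2 of them higher, against a background of 19.5%, and 2xDbp1 against Dbp1 had 7, all lower, against 7.77%. In footprints there were 0 in 2xDbp1 against Ded1 (9.3% of all genes), 3 in Dbp1 against Ded1 (23.5%) and 2 in 2xDbp1 against Dbp1 (9.07%). These counts rested on single libraries, in mRNA and in footprints. They rose in 2xDbp1 against Ded1 without Ded1 replicate 1, and in Dbp1 against Ded1 without Ded1 replicate 2. In 2xDbp1 against Dbp1 they rose without 2xDbp1 replicate 2 and fell without 2xDbp1 replicate 1. The mRNA count of 2xDbp1 against Ded1 fell without Ded1 replicate 2 and without 2xDbp1 replicate 1. Over all genes the number fell in each of these fits, also where that of the 46 genes rose. Each such fit leaves 1 library in a group, so its counts are not given, and the medians follow below. A p that misses the threshold does not show equal levels: the 95% intervals of the fold changes had a median half-width of 0.36 in mRNA and 0.40 in footprints on the log2 scale. They lay wholly within 1 log2 unit of 0, in either direction, for 42, 39 and 35 of the 45 genes in mRNA and for 42, 39 and 34 of the 46 in footprints.

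As a group the genes lay lowest in 2xDbp1, but the size and in part the direction rested on single libraries. The median log2 fold change in mRNA was -0.12 in 2xDbp1 against Ded1, with 6 of 45 genes positive, beside a median of 0.03 and 54.8% positive over all genes tested. It was -0.34 without Ded1 replicate 1 and 0.07 without Ded1 replicate 2, and -0.32 without 2xDbp1 replicate 2 and 0.01 without 2xDbp1 replicate 1. In Dbp1 against Ded1 the mRNA median was 0.12, with 32 of 45 positive, beside 0.04 and 57.0%. It was -0.09 without Ded1 replicate 1 and 0.30 without Ded1 replicate 2. Between 2xDbp1 and Dbp1 the mRNA median was -0.23, with 5 of 45 positive, beside -0.01 and 47.0%. This one kept its sign, at -0.10 without 2xDbp1 replicate 1 and -0.38 without 2xDbp1 replicate 2. The comparisons share libraries pairwise, so they are not independent of one another. In bulk cultures, fewer cells of a kind and less RNA per cell cannot be told apart.

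Footprints gave medians close to those of mRNA. They were -0.09 in 2xDbp1 against Ded1 (6 of 46 positive, all genes 0.01 and 51.9%), 0.10 in Dbp1 against Ded1 (32 of 46, all genes 0.004 and 50.8%) and -0.19 in 2xDbp1 against Dbp1 (6 of 46, all genes 0.008 and 51.9%). The first turned to 0.14 without Ded1 replicate 2 and to 0.05 without 2xDbp1 replicate 1, and was -0.375 without Ded1 replicate 1 and -0.27 without 2xDbp1 replicate 2. Dbp1 against Ded1 turned to -0.12 without Ded1 replicate 1 and was 0.31 without Ded1 replicate 2. For 2xDbp1 against Dbp1 the footprint median was -0.04 without 2xDbp1 replicate 1 and -0.33 without 2xDbp1 replicate 2.

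Counting genes whose libraries do not overlap shows where the groups were separate. In 2xDbp1 against Dbp1, both 2xDbp1 libraries were below both Dbp1 libraries for 29 of 45 genes in mRNA and 21 of 46 in footprints, where 21.3% and 18.2% of all genes were. The reverse held for 1 gene in mRNA (THR1) and 2 in footprints (HIS6 and ILV5), against 18.2% and 24.0% of all genes. In 2xDbp1 against Ded1, 8 genes were separate and lower in mRNA (21.4% of all genes) and 3 in footprints (19.7%), and 2 were higher in each (30.9% and 25.0%). For Dbp1 against Ded1, 7 were separate and higher in mRNA (30.6%) and 6 in footprints (25.1%), with 3 lower in each (21.0% and 26.1%). The counts in the comparisons with Ded1 were thus smaller shares than those of all genes, in both directions.

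**Figure D2:**
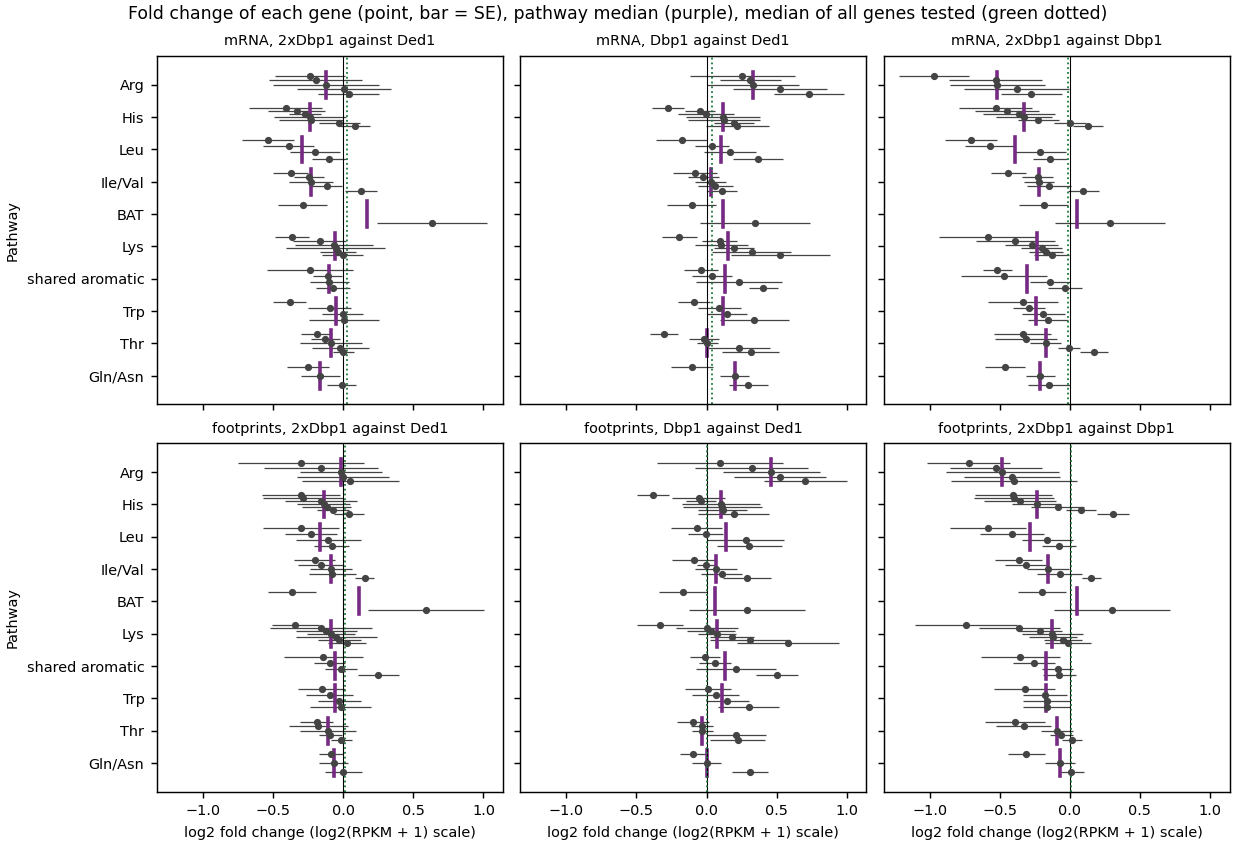
Log2 fold change of each gene (points, bars are the SE of the fit) by pathway for the 3 genotype comparisons in mRNA (upper row) and footprints (lower row), with the pathway median as a purple bar and the median of all genes tested as a green dotted line. The pathway medians of 2xDbp1 against Dbp1 lie left of 0 for every pathway but the branched-chain aminotransferases, and the arginine genes lie farthest from 0 in Dbp1 against Ded1.

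Translational efficiency, the footprint log2 fold change minus that of mRNA, was tested in 1 model of all 12 libraries, as a term for genotype by library type. No gene of 45 passed, and none had an unadjusted p under 0.05 in this fit, which treats the libraries as unpaired. Over all genes tested, 0.0418% passed in 2xDbp1 against Ded1, 0.0418% in Dbp1 against Ded1 and 0.0% in 2xDbp1 against Dbp1, and 5.12%, 3.16% and 3.59% had an unadjusted p under 0.05. With same-numbered mRNA and footprint libraries of a genotype treated as pairs, 5, 2 and 4 of the 45 genes had such a p, as did 597, 359 and 445 of the 4785 genes, and again none of the 45 passed. Medians were 0.03, -0.02 and 0.07 in the same order, with 27, 17 and 31 of 45 genes positive. Over all genes the medians were -0.003, -0.02 and 0.02, with 49.4%, 44.2% and 55.0% positive. The median of Dbp1 against Ded1 turned to 0.02 when libraries were rescaled to a common median and to 0.006 without Ded1 replicate 2, and was -0.05 without Ded1 replicate 1. The median over all genes moved likewise in these 3 fits, to 0.02, 0.009 and -0.06. In 2xDbp1 against Ded1 the median of the 45 genes was 0.06 and 0.01 when Ded1 replicate 2 or Ded1 replicate 1 was left out, and 0.05 when 2xDbp1 replicate 1 was. Footprints per mRNA were higher in both 2xDbp1 pairs of libraries than in both Dbp1 pairs for 19 of 45 genes, against 24.7% of all genes, and lower for 3, against 17.8%. Against Ded1 they were higher in 2xDbp1 for 17 (19.7%) and lower for 7 (24.0%), and in Dbp1 higher for 5 (13.2%) and lower for 4 (22.1%). The largest single difference was that of ARO1, at 0.36 in 2xDbp1 against Ded1 (SE 0.19, 95% interval -0.06 to 0.79, limma adjusted p = 0.980).

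As a group, the genes differed widely between the 2 libraries of Ded1, less so between those of 2xDbp1, and little between those of Dbp1. In Ded1, 40 of 46 genes were higher in replicate 2 than in replicate 1 in mRNA and 45 of 46 in footprints, with median log2 differences of 0.42 and 0.48. Over the 4785 genes these medians were -0.01 and 0.06. In Ded1 mRNA 18 of the 46 genes were higher by over 0.5 on the log2 scale, against 2.55% of all genes, and in Ded1 footprints 20 were, against 3.45%. The 2 replicates of 2xDbp1 stood apart in the same direction, with median differences of 0.26 in mRNA and 0.28 in footprints and 43 of 46 genes higher in replicate 2 in each. Those of Dbp1 did not: 25 and 27 of 46 genes were higher in replicate 2, with medians of 0.004 and 0.02. The replicate number is a name of the libraries and implies no order. The largest gap between replicates exceeded the range of the 3 genotype means for 34 of the 46 genes in mRNA and for 42 in footprints, against 55.4% and 58.2% of the 4785 genes. Such a gap is between single libraries and the range is between means of 2, which by itself favours the gap.

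Summed over the 46 genes, mRNA was 14250 and 17530 RPKM in 2xDbp1, 18570 and 19040 in Dbp1, and 14670 and 19760 in Ded1. Footprints summed to 18620 and 22430 RPKM in 2xDbp1, 23330 and 23280 in Dbp1, and 18450 and 24130 in Ded1. Replicate 1 of 2xDbp1 and of Ded1 were thus the lowest libraries of both types, Ded1 replicate 2 was the highest, and only the Dbp1 pair was close. The gap was carried by mRNA and footprints together. Footprints per mRNA differed between replicates by only 0.07 for 2xDbp1, 0.09 for Dbp1 and 0.09 for Ded1, as the median absolute log2 value of the 46 genes.

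**Figure D3:**
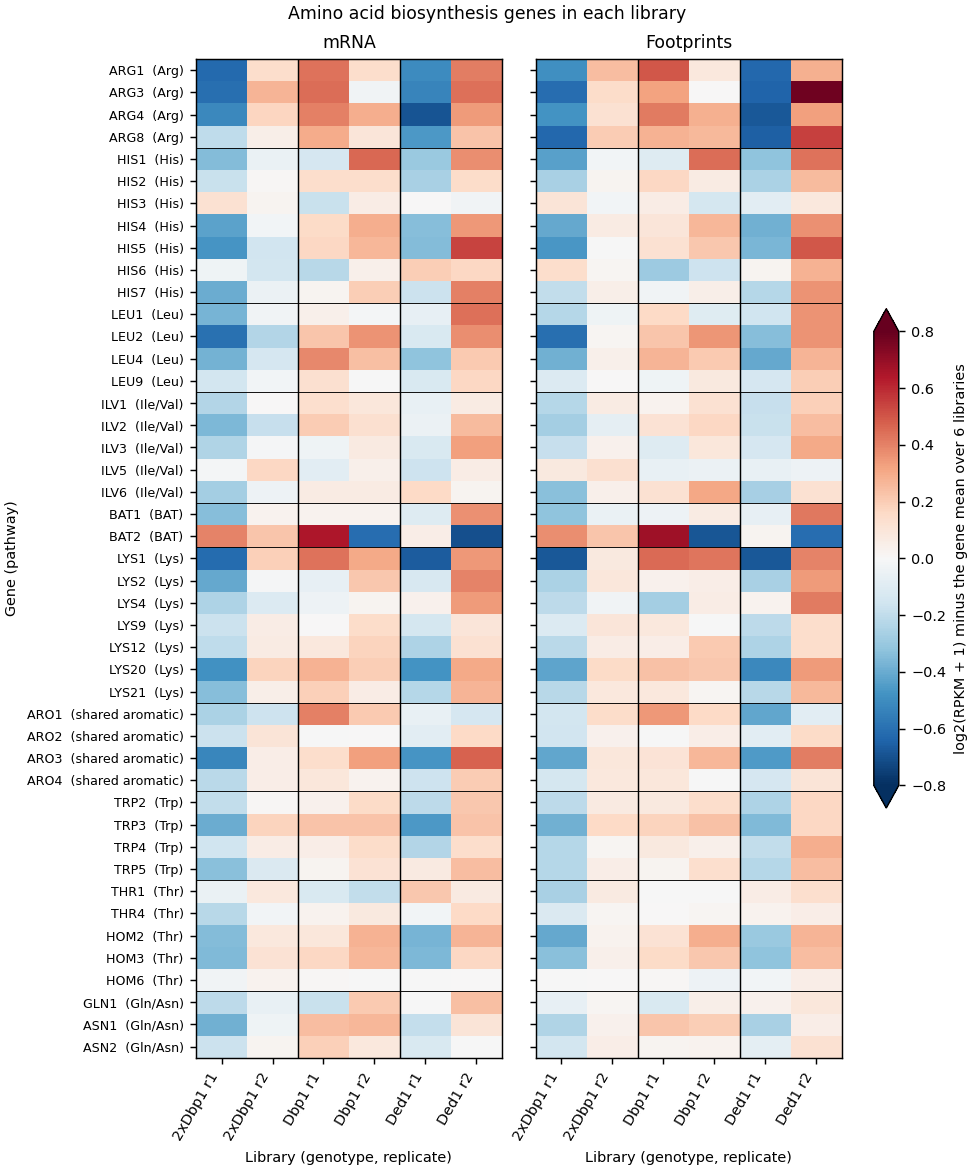
Level of 45 of the 46 genes in each library, as log2(RPKM + 1) minus the mean of that gene over the 6 libraries of its type, with mRNA on the left and footprints on the right and pathways divided by lines. The columns of 2xDbp1 replicate 1 and Ded1 replicate 1 are mostly blue (low), that of Ded1 replicate 2 is mostly red (high), and BAT2 runs against the other rows.

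GCN4 was measured beside its target genes. Its mRNA was at 1807 and 2037 RPKM in 2xDbp1, 2224 and 1927 in Dbp1, and 1339 and 1519 in Ded1, so that both Dbp1-expressing genotypes lay above Ded1 with no overlap. The differences did not pass (limma, log2 fold change 0.43, adjusted p = 0.238 in 2xDbp1 against Ded1 and 0.54, adjusted p = 0.0718 in Dbp1 against Ded1). GCN4 footprints were 237.5 and 426 RPKM in 2xDbp1, 468 and 382 in Dbp1, and 166 and 337 in Ded1. Here 2xDbp1 replicate 1 and Ded1 replicate 1 were the lowest libraries, as they were for the 46 genes. Footprints per GCN4 mRNA were 0.131 and 0.209 in 2xDbp1, 0.210 and 0.198 in Dbp1, and 0.124 and 0.222 in Ded1, so the values of those 2 libraries stood apart and the other 4 lay close together. The part of GCN4 in the levels of the 46 genes was not tested. Of 9 regulatory genes (GCN4, GCN2, GCN20, GCN1, LEU3, LYS14, ARG80, ARG81 and ARG82), 0 passed in any of the 9 limma tests. At an unadjusted p under 0.05 there were 2 in each mRNA comparison with Ded1, 1 in footprints of 2xDbp1 against Ded1 and 0 in the other tests, where 15.1%, 19.5% and 9.3% of all genes had such a p in those 3 comparisons.

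**Figure D4:**
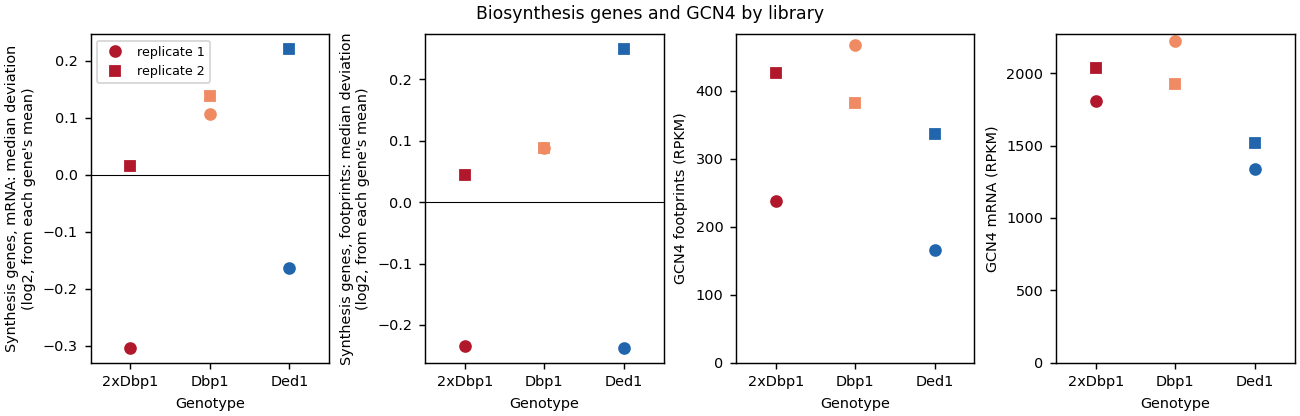
Each panel has the 3 genotypes on the horizontal axis and 1 point per library (circles replicate 1, squares replicate 2): the median deviation of the 46 genes from their own means in mRNA and in footprints (log2), then GCN4 footprints and GCN4 mRNA (RPKM). In the first 3 panels the circles of 2xDbp1 and Ded1 are the lowest points, and in the panel of GCN4 mRNA both Ded1 points are.

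General stress genes, as a sum, were highest in Dbp1 and lowest in Ded1. The 13 stress genes summed to 306 and 295 RPKM of mRNA in 2xDbp1, 1083 and 646 in Dbp1, and 158 and 205 in Ded1. In Dbp1 against Ded1, 8 of 13 rose in mRNA and 11 of the 12 tested rose in footprints (limma, adjusted p under 0.05), where 1.52% and 3.31% of all genes passed in either direction. HSP12 took a large part of these sums, with 104.5 and 84.9 RPKM of mRNA in 2xDbp1, 674 and 344 in Dbp1, and 17.5 and 64.5 in Ded1. In 2xDbp1 against Ded1, 12 of the 13 stress genes were positive in mRNA, with a median log2 fold change of 0.69. There 0 passed, and 9 had an unadjusted p under 0.05 (limma), against 15.1% of all genes. The stress list was drawn up with earlier results of these data known, so the shares of all genes are no independent background for it. The part of the stress genes in the levels of the amino acid genes was not tested.

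The arginine genes had the widest differences between libraries. ARG1 (YOL058W), argininosuccinate synthetase, was at 451.5 and 768 RPKM of mRNA in 2xDbp1, 942 and 766 in Dbp1, and 492 and 927 in Ded1. Its lowest libraries were replicate 1 of 2xDbp1 and of Ded1, and the ranges of the 3 genotypes overlapped. ARG3 (YJL088W), ornithine carbamoyltransferase, had 69.05 and 117 RPKM of footprints in 2xDbp1, 133 and 106 in Dbp1, and 67.6 and 182 in Ded1, which makes the Ded1 replicates differ 2.67-fold, the largest replicate gap among the 46 genes. ARG4, argininosuccinate lyase, was the most abundant arginine transcript at a mean of 808 RPKM, with a ratio of footprints to mRNA of 0.580. ARG8 was intermediate in mRNA, at a mean of 128 RPKM, and lowest of the 5 in footprints, at 51.15 RPKM. All 5 arginine genes had positive fold changes in Dbp1 against Ded1 in mRNA and in footprints, with medians of 0.33 and 0.46. Over all genes 57.0% and 50.8% were positive. All 5 were higher in Ded1 replicate 2 than in Ded1 replicate 1, in both types. Both Dbp1 libraries lay above both Ded1 libraries for 1 of the 5 in mRNA (30.6% of all genes) and 1 in footprints (25.1%). All 5 were negative in 2xDbp1 against Dbp1, with medians of -0.52 and -0.48, while in 2xDbp1 against Ded1 the medians were -0.12 and -0.02. None passed the test. ARG4 had both 2xDbp1 libraries below both Dbp1 libraries in mRNA and in footprints, with log2 fold changes of -0.52 (SE 0.34, limma adjusted p = 0.697) and -0.53 (SE 0.33, limma adjusted p = 0.653).

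Histidine synthesis had the lowest median of footprints per mRNA among the pathways, although HIS4, HIS6 and HIS7 lay above the median of all genes. HIS1 (YER055C), ATP phosphoribosyltransferase and the first enzyme of the chain, averaged 1388 RPKM of mRNA at 0.547 footprints per mRNA. Of the 7 genes, HIS4, an enzyme of several steps, had the highest ratio at 1.76, and HIS3 the lowest. HIS1 mRNA was at 1064 and 1307 RPKM in 2xDbp1, 1237 and 1863 in Dbp1, and 1103 and 1751 in Ded1, so that replicate 2 was the higher library in Dbp1 as well as in the other genotypes. HIS5 (YIL116W), histidinol-phosphate aminotransferase, was at 302 and 376 RPKM of mRNA in 2xDbp1, 471 and 503.5 in Dbp1, and 329 and 611 in Ded1. Both 2xDbp1 libraries lay below both Dbp1 libraries, and the Ded1 libraries spanned both groups. Its log2 fold change was -0.53 (SE 0.26, limma adjusted p = 0.665) in 2xDbp1 against Dbp1.

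HIS3 and HIS6 were not lower in replicate 1 than in replicate 2 of 2xDbp1 in either library type, nor of Ded1 in mRNA. In Ded1 footprints they were, by 0.17 and 0.26 on the log2 scale. HIS6 (YIL020C), an isomerase of the chain, was at 80.9 and 74.8 RPKM of mRNA in 2xDbp1, 70.7 and 85.15 in Dbp1, and 95.04 and 93.2 in Ded1. Its footprints were at 64.9 and 59.5 RPKM in 2xDbp1, 47.8 and 52.3 in Dbp1, and 59.7 and 71.5 in Ded1. In footprints both Dbp1 libraries lay below all 4 others, opposite to most of the 46 genes, with a log2 fold change of -0.38 (SE 0.11, limma adjusted p = 0.113) in Dbp1 against Ded1 and 0.31 (SE 0.11, limma adjusted p = 0.511) in 2xDbp1 against Dbp1. Its translational efficiency differed by 0.30 (SE 0.17, limma adjusted p = 0.999) in 2xDbp1 against Dbp1 and by 0.20 (SE 0.17, limma adjusted p = 0.980) in 2xDbp1 against Ded1. HIS3 (YOR202W) was at 197 and 183.5 RPKM of mRNA in 2xDbp1, 159.5 and 188 in Dbp1, and 181 and 177 in Ded1. Both 2xDbp1 libraries lay above both Ded1 libraries in mRNA by a narrow margin, and all genotypes overlapped in footprints. HIS2, histidinol phosphatase, and HIS7, imidazole glycerol phosphate synthase, averaged 116 and 169.5 RPKM of mRNA and 51.7 and 152 RPKM of footprints.

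Of the leucine genes, LEU4 (YNL104C) and LEU9 (YOR108W), isozymes of the first step, had similar mRNA and different footprints. LEU4 was at 126 and 149 RPKM of mRNA in 2xDbp1, 214.5 and 194 in Dbp1, and 131 and 189.8 in Ded1. For LEU9 the levels were 145 and 158 RPKM of mRNA in 2xDbp1, 175 and 159.8 in Dbp1, and 147 and 179 in Ded1. The ratio of LEU4 to LEU9 was 0.872 to 1.23 in the mRNA libraries and 1.82 to 2.72 in the footprint libraries. LEU4 had both 2xDbp1 libraries below both Dbp1 libraries in mRNA, with a log2 fold change of -0.57 (SE 0.18, limma adjusted p = 0.534). LEU1, isopropylmalate isomerase, averaged 109.5 RPKM of mRNA and 189 RPKM of footprints. Close copies such as LEU4 and LEU9 can share reads, so the split between them is uncertain, and the same holds for the other isozyme pairs below.

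LEU2 (YCL018W) had the fewest footprints per mRNA of the 46 genes. It was at 35.4 and 45.95 RPKM of mRNA in 2xDbp1, 63.2 and 69.9 in Dbp1, and 49.7 and 70.3 in Ded1. LEU2 footprints were at 10.7 and 17.0 RPKM in 2xDbp1, 19.8 and 21.8 in Dbp1, and 13.1 and 21.9 in Ded1. Both 2xDbp1 libraries were the lowest in mRNA, with log2 fold changes of -0.71 (SE 0.19, limma adjusted p = 0.460) in 2xDbp1 against Dbp1 and -0.54 (SE 0.19, limma adjusted p = 0.289) in 2xDbp1 against Ded1. In footprints the 2xDbp1 and Ded1 libraries overlapped, and both 2xDbp1 libraries lay below the Dbp1 libraries (log2 fold change -0.58, SE 0.27, limma adjusted p = 0.573). LEU2, HIS3 and LYS2 are common selectable markers of laboratory yeast, and the labels do not give the alleles at these loci.

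The isoleucine and valine genes had many footprints per mRNA. In Ded1 footprints, replicate 2 was above replicate 1 by 0.37 to 0.44 on the log2 scale for ILV1, ILV2, ILV3 and ILV6, and by 0.018 for ILV5. ILV5 (YLR355C), acetohydroxyacid reductoisomerase, had the most footprints of the 46 genes, at 3105 and 3209 RPKM of footprints in 2xDbp1, 2827 and 2844 in Dbp1, and 2824 and 2859 in Ded1. The replicates of each genotype differed by 1.01-fold to 1.03-fold, and both 2xDbp1 libraries lay above the other 4. Log2 fold changes were 0.15 (SE 0.07, limma adjusted p = 0.550) in 2xDbp1 against Ded1 and 0.15 in 2xDbp1 against Dbp1. ILV2 (YMR108W), the catalytic subunit of acetolactate synthase, was at 157 and 177 RPKM of mRNA in 2xDbp1, 232 and 220.1 in Dbp1, and 195 and 240.1 in Ded1. Both 2xDbp1 libraries were below all 4 others, with a log2 fold change of -0.38 (SE 0.12, limma adjusted p = 0.286) in 2xDbp1 against Ded1. ILV6 (YCL009C), its regulatory subunit, was close to ILV2 in mRNA, at a mean of 215 against 204 RPKM, and had more footprints, at 927 against 554 RPKM. ILV6 translational efficiency differed by 0.31 (SE 0.22, limma adjusted p = 0.9996) in Dbp1 against Ded1. ILV1, threonine deaminase, and ILV3, dihydroxyacid dehydratase, averaged 160 and 464 RPKM of mRNA and 316 and 527 RPKM of footprints.

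BAT2 went against the rest. BAT1 (YHR208W) and BAT2 (YJR148W) encode the mitochondrial and the cytosolic branched-chain aminotransferase, which transfer the amino group in the last step of leucine, isoleucine and valine synthesis and also start their breakdown. BAT2 was at 610.5 and 541 RPKM of mRNA in 2xDbp1, 727 and 304 in Dbp1, and 481 and 284.5 in Ded1. BAT2 footprints were at 586 and 528 RPKM in 2xDbp1, 724 and 281 in Dbp1, and 459 and 296.5 in Ded1. Replicate 2 of Dbp1 and of Ded1 had the lowest values, at 0.420 and 0.592 times the mRNA level of replicate 1. Both 2xDbp1 libraries lay above both Ded1 libraries, with log2 fold changes of 0.63 (SE 0.39, limma adjusted p = 0.473) in mRNA and 0.59 (SE 0.42, limma adjusted p = 0.652) in footprints. BAT1 mRNA was at 252 and 326 RPKM in 2xDbp1, 326 and 327 in Dbp1, and 299 and 412 in Ded1. BAT1 over BAT2 was 0.414 and 0.603 in 2xDbp1, 0.449 and 1.07 in Dbp1, and 0.621 and 1.45 in Ded1 in mRNA. In footprints it was 0.552 and 0.738 in 2xDbp1, 0.543 and 1.51 in Dbp1, and 0.842 and 1.83 in Ded1. The cytosolic gene thus exceeded the mitochondrial one in all libraries except replicate 2 of Dbp1 and of Ded1, in both library types.

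**Figure D5:**
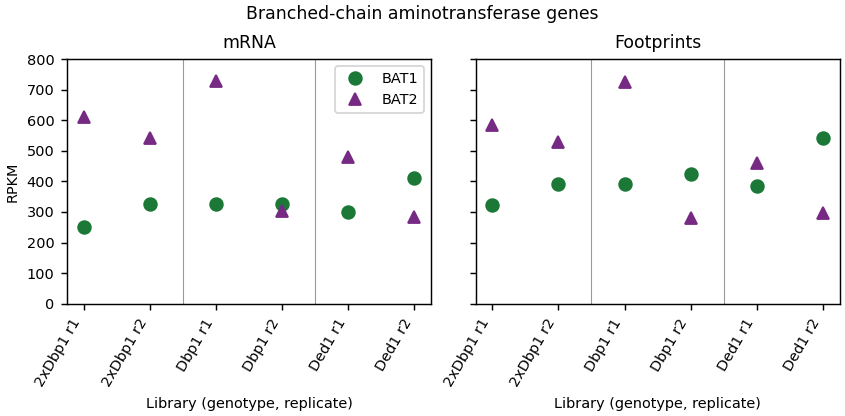
Level (RPKM) of BAT1 (green circles) and BAT2 (purple triangles) in each mRNA library (left) and footprint library (right), ordered by genotype. BAT2 lies above BAT1 in 4 of 6 libraries of each type and below it in replicate 2 of Dbp1 and of Ded1.

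Within lysine synthesis, LYS1 (YIR034C), saccharopine dehydrogenase of the last step, varied most. It was at 67.9 and 119 RPKM of mRNA in 2xDbp1, 142 and 129 in Dbp1, and 65.6 and 133 in Ded1. LYS1 footprints were at 115 and 195 RPKM in 2xDbp1, 253 and 249 in Dbp1, and 115 and 244 in Ded1. Replicate 1 of 2xDbp1 and of Ded1 were lowest by a wide margin, and both 2xDbp1 libraries lay below both Dbp1 libraries (log2 fold change -0.58, SE 0.35, limma adjusted p = 0.682 in mRNA and -0.74, SE 0.37, adjusted p = 0.586 in footprints). In Dbp1 against Ded1 the footprint log2 fold change was 0.58 (SE 0.37, limma adjusted p = 0.401). LYS4 (YDR234W), homoaconitase, was at 80.3 and 88.5 RPKM of mRNA in 2xDbp1, 93.1 and 97.1 in Dbp1, and 97.8 and 121 in Ded1, with both 2xDbp1 libraries below both Ded1 libraries (log2 fold change -0.37, SE 0.12, limma adjusted p = 0.286). The same order held in LYS4 footprints (log2 fold change -0.34, SE 0.16, limma adjusted p = 0.575). LYS12, homoisocitrate dehydrogenase, was the most abundant lysine transcript, at a mean of 685 RPKM, with a ratio of 0.445 footprints per mRNA, and LYS9 averaged 183 RPKM at a ratio of 0.804.

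LYS20 (YDL182W) and LYS21 (YDL131W) encode the homocitrate synthases that start the lysine chain, and LYS20 was the higher in every library. LYS20 was 1.55 to 2.02 times LYS21 in mRNA and 1.55 to 2.174 times in footprints over the libraries. The proportion was lowest in replicate 1 of 2xDbp1 and of Ded1, in both types. LYS2 (YBR115C), aminoadipate reductase, was the lowest of the 46 genes, at 2.33 and 3.41 RPKM of mRNA in 2xDbp1, 3.24 and 4.15 in Dbp1, and 3.06 and 4.83 in Ded1. Its footprints were at 7.24 and 9.45 RPKM in 2xDbp1, 9.05 and 9.20 in Dbp1, and 7.20 and 11.4 in Ded1, and the genotypes overlapped in both.

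In the shared aromatic path, ARO1 had the lowest p among the 46 genes in Dbp1 against Ded1 and in 2xDbp1 against Dbp1 mRNA. It was at 58.85 and 62.4 RPKM of mRNA in 2xDbp1, 93.3 and 81.4 in Dbp1, and 67.3 and 63.8 in Ded1, both Dbp1 libraries above all others. The log2 fold change was 0.41 (SE 0.10, limma adjusted p = 0.107) in Dbp1 against Ded1 and -0.52 (SE 0.10, limma adjusted p = 0.303) in 2xDbp1 against Dbp1. ARO1 footprints were at 623 and 764 RPKM in 2xDbp1, 877 and 771.5 in Dbp1, and 516.5 and 651 in Ded1. Both Dbp1 libraries lay above both Ded1 libraries (log2 fold change 0.50, SE 0.15, limma adjusted p = 0.110), and the 2xDbp1 libraries lay below those of Dbp1 and overlapped with those of Ded1. ARO3 (YDR035W) and ARO4 (YBR249C), the first enzymes of the path that respond to phenylalanine and tyrosine, averaged 495 and 1258 RPKM of mRNA. ARO3 over ARO4 was 0.309 to 0.470 in mRNA and 0.311 to 0.478 in footprints. ARO3 had the wider replicate gap of the pair in Ded1, 1.92-fold in mRNA against 1.29-fold for ARO4. ARO2, chorismate synthase, averaged 607 RPKM of mRNA at a ratio of 0.851.

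The tryptophan branch had middle levels. TRP5 (YGL026C) was at 111 and 129.6 RPKM of mRNA in 2xDbp1, 142.5 and 152 in Dbp1, and 147 and 167 in Ded1, both 2xDbp1 libraries below all 4 others. It had the lowest p of the 46 genes in 2xDbp1 against Ded1 mRNA (log2 fold change -0.38, SE 0.11, limma adjusted p = 0.270). TRP5 footprints overlapped between those genotypes, and its translational efficiency differed by 0.29 (SE 0.22, limma adjusted p = 0.980). TRP3, the anthranilate synthase subunit that also carries indole-glycerol-phosphate synthase, was the most abundant of the 4 at a mean of 272 RPKM of mRNA, and TRP2, its partner subunit, had 179 RPKM. TRP4, anthranilate phosphoribosyltransferase, was the lowest with 116 RPKM of mRNA and a ratio of 0.872. The remaining gene of the branch, TRP1 (phosphoribosylanthranilate isomerase, another common marker and not one of the 46), was at 5.70 and 6.53 RPKM of mRNA in 2xDbp1, 79.7 and 71.5 in Dbp1, and 70.4 and 83.4 in Ded1. It fell in 2xDbp1 against Ded1 (log2 fold change -3.45, limma adjusted p = 2.168e-05) and against Dbp1 (-3.43, adjusted p = 6.8e-05). TRP1 footprints were at 0.770 to 1.67 RPKM in every library, Dbp1 and Ded1 included.

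Within threonine synthesis, HOM6 varied little between libraries and HOM2 varied more. HOM6 (YJR139C), homoserine dehydrogenase, was at 974 and 1014 RPKM of mRNA in 2xDbp1, 1002 and 994 in Dbp1, and 991.5 and 996.5 in Ded1. Its levels thus ran from 974 to 1014 RPKM with no group apart, and the log2 fold change in Dbp1 against Ded1 was 0.006 with a 95% interval of -0.17 to 0.19. HOM2 (YDR158W), aspartate semialdehyde dehydrogenase, had the highest mRNA level of the 46 genes, at 1136 and 1531 RPKM of mRNA in 2xDbp1, 1538 and 1752 in Dbp1, and 1119 and 1750 in Ded1, with replicate 1 of 2xDbp1 and of Ded1 lowest. HOM3, aspartate kinase, which starts the path, averaged 196 RPKM of mRNA at a ratio of 2.19, and THR4, threonine synthase, 292 RPKM at 1.95. THR1 (YHR025W) was at 117 and 129 RPKM of mRNA in 2xDbp1, 112 and 106 in Dbp1, and 141 and 128 in Ded1. Both Dbp1 libraries were the lowest, with log2 fold changes of -0.30 (SE 0.10, limma adjusted p = 0.176) in Dbp1 against Ded1 and 0.17 in 2xDbp1 against Dbp1. THR1 footprints were at 343 and 432.5 RPKM in 2xDbp1, 410.3 and 411 in Dbp1, and 428 and 450.5 in Ded1. Both Dbp1 libraries lay below both Ded1 libraries and between those of 2xDbp1. The translational efficiency of THR1 differed by 0.20 (SE 0.16, limma adjusted p = 0.9996) in Dbp1 against Ded1 and by -0.27 (SE 0.16, limma adjusted p = 0.999) in 2xDbp1 against Dbp1.

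Of the amide genes, GLN1 (YPR035W), glutamine synthetase, averaged 553.5 RPKM of mRNA and 651 RPKM of footprints. ASN1 (YPR145W) and ASN2 (YGR124W), the asparagine synthetases, stood at a ratio of ASN1 to ASN2 of 1.62 to 2.12 in mRNA and 1.66 to 2.15 in footprints. ASN1 mRNA was at 616 and 783 RPKM in 2xDbp1, 950.4 and 964 in Dbp1, and 701 and 862 in Ded1. ASN1 footprints were at 812 and 981 RPKM in 2xDbp1, 1117 and 1098 in Dbp1, and 802 and 994.5 in Ded1, both Dbp1 libraries above all others (log2 fold change -0.31, SE 0.13, limma adjusted p = 0.552 in 2xDbp1 against Dbp1). ASN2 footprints overlapped between all genotypes, and the translational efficiency of ASN2 differed by -0.20 (SE 0.15, limma adjusted p = 0.9996) in Dbp1 against Ded1.

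The pathways ranked differently by mRNA and by ribosome load. Median mRNA levels were highest for the glutamine and asparagine genes (553.5 RPKM) and the shared aromatic genes (551 RPKM), and lowest for lysine (109.5 RPKM). Median footprints per mRNA were highest for isoleucine and valine (2.71), threonine (1.95) and lysine (1.77), and lowest for histidine (0.547). The replicate gap was also uneven among pathways. In Ded1 mRNA the median log2 difference of replicate 2 over replicate 1 was 0.91 for arginine, 0.58 for histidine, 0.50 for leucine and 0.50 for lysine. It was 0.40 for tryptophan, 0.30 for the shared aromatic genes, 0.25 for glutamine and asparagine, 0.23 for isoleucine and valine and 0.18 for threonine. BAT1 and BAT2 together went the other way, at -0.15, with BAT1 at 0.46 and BAT2 at -0.76. In 2xDbp1 mRNA, arginine was again the highest at 0.68, followed by lysine at 0.39. In Dbp1 the arginine genes differed the other way, at -0.30, with all 5 lower in replicate 2, and the widest median there was that of BAT1 and BAT2, at -0.62.

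Among 19 further amino acid synthesis genes outside the 46, 18 were tested in mRNA and 17 in footprints. Apart from TRP1, which fell in 2xDbp1 mRNA, 0 passed in either direction in any of the 9 limma tests. At an unadjusted p under 0.05 there were 3, 3 and 5 in mRNA, TRP1 included, and 3, 4 and 0 in footprints. The order is 2xDbp1 against Ded1, Dbp1 against Ded1 and 2xDbp1 against Dbp1. Of all genes tested, 15.1%, 19.5% and 7.77% had such a p in mRNA and 9.3%, 23.5% and 9.07% in footprints. Their median log2 fold changes in mRNA were -0.13 in 2xDbp1 against Ded1, -0.001 in Dbp1 against Ded1 and -0.15 in 2xDbp1 against Dbp1. Over all genes tested these medians were 0.03, 0.04 and -0.01. ARG7, ornithine acetyltransferase, was lowest in replicate 1 of 2xDbp1 and of Ded1, at 263 and 398 RPKM of mRNA in 2xDbp1, 416.5 and 441 in Dbp1, and 262 and 482 in Ded1. Glutamate dehydrogenase GDH1, which makes the amino donor of most of these chains, was at 603 and 640.4 RPKM of mRNA in 2xDbp1, 685 and 802 in Dbp1, and 707 and 652 in Ded1. Both 2xDbp1 libraries lay below both Ded1 libraries, and those of Dbp1 and Ded1 overlapped.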

How the data were processed

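Poly(A) mRNA and ribosome footprints of 3 genotypes were sequenced, in 6 groups of 2 libraries, with size selection of 28 to 31 nt for footprints and 50 nt for mRNA per the labels' protocols. The deposited values are RPKM, 1 column per library. The unit was read from the values, since the labels name none: multiplied by gene length less 60 nt, the low values of a library fall on multiples of 1 step. Among values of at most 200 reads, 83.8% to 87.8% were whole to within 0.02 reads, and the depth given is inferred from these steps. Intervals on reads cover counting error only. CASAVA, bcl2fastq 2.17 and Bowtie2 are named in the submitters' processing notes. Genome build, annotation, counting rules, strand use and what each tool did were not given in the sources used here.

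From these values, a limma model (version 3.58.1 in R 4.3.3, empirical Bayes with a trend) of log2(RPKM + 1) was fitted over the 6 mRNA or the 6 footprint libraries, with 3 residual degrees of freedom before moderation. The minimum for a gene was an average of 5 RPKM, for translational efficiency in both types. The tests thus covered 5198 genes for mRNA, 4830 for footprints and 4785 for translational efficiency, the genotype by library type term. P-values are 2-sided and adjusted by Benjamini-Hochberg over all genes of a fit, with a threshold of 0.05. The code was tested on simulated data. No count test was run, because the values are RPKM. Names and coding lengths come from the R64 reference gene table, which matched all 46 genes and 5637 of 6159 identifiers. Sequences, promoter motifs and the amino acid content of the enzymes are not analysed here.

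Named genes follow a rule: the 3 lowest p-values of each test, the highest and lowest genes of each pathway in mRNA and in footprints per mRNA, the isozyme pairs, and genes with separate libraries in both types and a log2 fold change of at least 0.5 in mRNA. Other members are given by role and mean. Of the 46 genes, 1 is not reported here by name and enters only the counts and medians. The 46 genes, the pathway lists and the other lists were chosen with earlier results of these data known. Same-numbered mRNA and footprint libraries of a genotype deviated together (Pearson correlation 0.417 for 2xDbp1, 0.657 for Dbp1 and 0.533 for Ded1, each over 0.1), and were treated as pairs in an alternative for translational efficiency. Alternatives were pseudocounts of 0.5 and 5, no filter, a minimum of 20 RPKM, rescaled libraries, the 2 compared genotypes alone, a replicate block and each library left out. Python 3.11.15, pandas 2.3.3, numpy 2.4.6 and matplotlib 3.10.9 were used.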

Additional observations from a re-analysis of the deposited data

How the results depend on the processing

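None of the 46 genes passed in any of the 9 tests under any of 13 alternatives, 117 fits in all, with 0 calls. The lowest adjusted p-values (limma) over these fits were 0.0654 for ARO1 mRNA in Dbp1 against Ded1 without Dbp1 replicate 2, 0.0857 for ARO1 footprints in the same comparison with rescaled libraries, and 0.198 for ARG1 translational efficiency in 2xDbp1 against Ded1 with the pairing. With the replicate block the number of genes past the threshold was 0 in every test. The block cannot move a fold change in this balanced design, so the medians, such as -0.12 in mRNA of 2xDbp1 against Ded1, are the same by construction. It did move the number of the 46 genes with an unadjusted p under 0.05, to 8, 6 and 15 in mRNA, against 5, 4 and 7 without it, and to 3, 6 and 11 in footprints, against 0, 3 and 2, for 2xDbp1 against Ded1, Dbp1 against Ded1 and 2xDbp1 against Dbp1. Over all genes the block gave such a p for 848, 1101 and 482 of 5198 in mRNA. In footprints it did for 516, 1178 and 540 of 4830. With only the 2 compared genotypes fitted, the footprint count in 2xDbp1 against Dbp1 was also 11, beside 437 of 4841 genes. It was 4 with rescaled libraries, beside 439 of 4828 genes, and 1 with no filter, beside 494 of 5738. Across genotypes, same-numbered libraries had correlations of 0.325, 0.166 and -0.107 in mRNA and 0.355, 0.191 and -0.0711 in footprints, in the same order. Those with Ded1 were over 0.1 and those of 2xDbp1 with Dbp1 were not. Whether the replicate number pairs libraries across genotypes is thus unsettled, and the labels state no pairing.

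Medians of the 46 genes depended on single libraries. Leaving out 1 library at a time, the mRNA median ran from -0.340 to 0.0664 in 2xDbp1 against Ded1, from -0.0865 to 0.305 in Dbp1 against Ded1 and from -0.38 to -0.10 in 2xDbp1 against Dbp1. The footprint median ran from -0.375 to 0.136, from -0.12 to 0.31 and from -0.33 to -0.04 in the same order. For translational efficiency it ran from 0.00988 to 0.0593, from -0.0500 to 0.00633 and from 0.05 to 0.07. With rescaled libraries the translational efficiency median was 0.0209 in Dbp1 against Ded1 and 0.0435 in 2xDbp1 against Dbp1. The median over all genes moved in the same directions, from -0.0192 to 0.0172 and from 0.0203 to -0.00105, so these shifts were not particular to the 46 genes. Over the 117 alternative fits, the median moved by more than the spread between replicates in 9 and by less in the rest, those fixed by the block included. The number of the 46 genes past the threshold was 0 in each, and it was not compared with that spread. Of 493 values of single genes 0 changed direction. These genes were picked from the same tests, for a low p or for separate libraries. That choice makes a reversal unlikely, so the count says little about the other genes. With 2 libraries per group, these data limit what can be called: the median half-width of a 95% interval was 0.36 for mRNA, 0.40 for footprints and 0.55 for translational efficiency on the log2 scale. A library left out leaves 1 of its group, which is then assumed to vary like the other groups.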
